A study of Caenorhabditis elegans with 4 samples.

Results

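The regions described here are the ZIM-3 ChIP-seq peaks on chromosome X of the nematode Caenorhabditis elegans. They were taken as every row for X in the deposited list that covers both replicates (called series-wide below), which gave 806 peaks of 6659, or 12.1% of that list. The peaks come from 1 group of hermaphrodites of strain fem-2(b245), genotype fem-2(b245)III, raised at 20 °C. Their stage label reads germline-containing young adult, although the protocol speaks of gravid worms grown in synchronized batches. Chromatin was precipitated with the affinity-purified rabbit polyclonal antibody SDQ3949. The group has 2 ChIP replicates with a peak list each and 2 input DNA samples, whose data were not analysed here. All samples share the fem-2 allele, and no strain lacking ZIM-3 was among them.

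ZIM-3 belongs to a small family of C2H2 zinc finger proteins that mark meiotic pairing centers, the chromosome regions through which homologues recognize each other and begin synapsis. Each member serves particular chromosomes: ZIM-3 serves I and IV, ZIM-1 serves II and III, ZIM-2 serves V and HIM-8 serves X. The pairing center of X lies near its left end. The X of hermaphrodites is also the chromosome to which the dosage compensation complex is recruited in somatic cells, through recruitment elements on X called rex sites. In the germline X carries few of the genes that are strongly transcribed there. Whole worms were used, so germline and somatic chromatin were not separated. The positions of pairing center repeats and rex sites were not at hand, and no genome sequence of this build was used, so peaks are identified by coordinates on WormBase WS220 and carry neither bases nor gene names.

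X was the chromosome with the fewest peaks per unit length among the 5 described, but it held a set of short peaks with very high scores spread along its whole length. Among peaks scoring at least 50, those of 700 bp or more were the majority on every chromosome described. Their share was smaller on X than on II to V taken as 1 group. The majority on X depended on the cut: of the 27 X peaks among the 100 highest series-wide peaks, 14 were under 700 bp wide. X peaks of medium width were also met more often by a peak of replicate 2 than peaks of the same width on the autosomes. A score is the authors' own value for each peak, on a scale that no source used here names, and it is read only within a list. No test was run on these differences: peaks of 1 list are not replicates, and 2 libraries of 1 group leave no comparison over samples. Intervals given with shares are exact 95% binomial intervals and cover counting error only. They treat each peak as independent although peaks lie in runs, so they can be too narrow. Whether 2 intervals overlap is given as description. The lists give no read depth.

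The 806 X peaks over 17.7 Mb gave 45.5 peaks per Mb. The autosomes ranged from 60.1 peaks per Mb on II to 84.9 on IV, with 62 on III and 67.7 on V. The density of X was 0.656 times that of II to V together. Replicate 1 listed 755 X peaks, or 42.6 per Mb, against 55.8 to 79.4 on the autosomes. In replicate 2, with 197 X peaks, the density was 11.1 per Mb and lay inside the autosomal range of 10.5 to 14.2. X was therefore the sparsest of these chromosomes in the series-wide list and in replicate 1, but not in replicate 2, where V was lower. Among the highest-scoring 10% of nuclear series-wide peaks the ratio of X to II to V rose to 0.912, close to the 0.915 of the replicate 2 list. Series-wide peaks covered 2.3% of X, against 3.03% to 3.86% of each autosome, whereas replicate 2 peaks covered 0.965% of X and 0.741% to 1.06% of the autosomes.

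**Figure D1:**
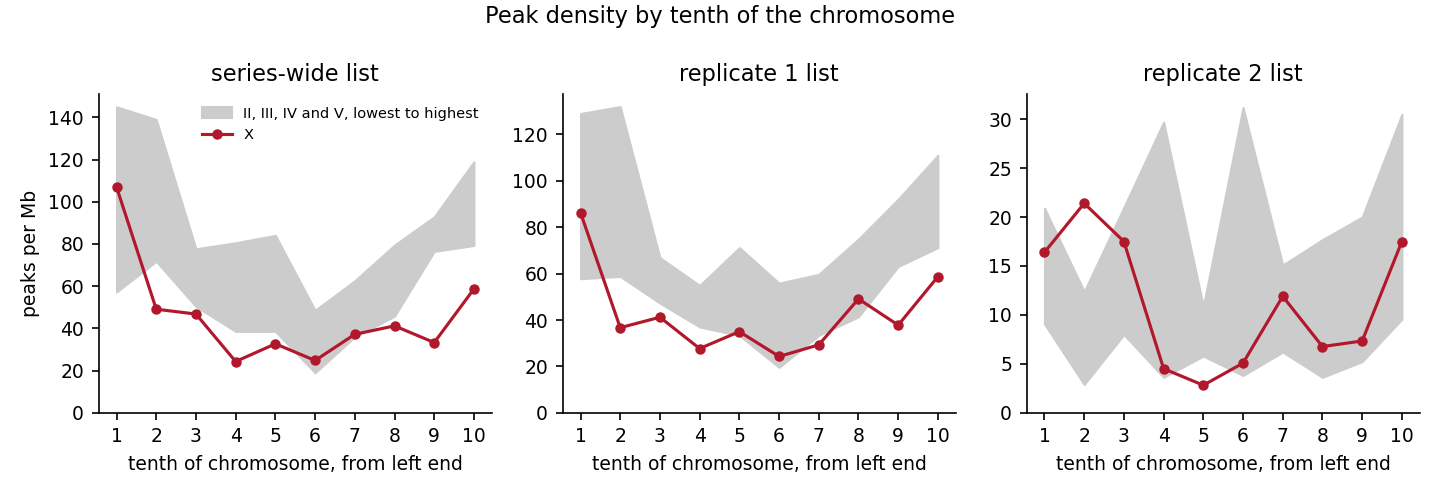
Peaks per Mb (vertical axis) in each 10% of the chromosome's length from its left end (horizontal axis), for X (red) and for the range from lowest to highest of II, III, IV and V (grey), in the series-wide list and in each replicate's list. In the series-wide list X lies below all 4 autosomes in 7 of 10 parts and within their range in the other 3, among them the leftmost, where X reaches 107 peaks per Mb.

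Along X the peaks were concentrated at the left end. The left 10% of the length held 189 peaks, or 23.4% of the chromosome's peaks (20.6% to 26.5%), and the right 10% held 104, or 12.9%. The middle 40% of the length held 211 peaks, or 26.2%. Autosomes had dense ends too. The left 10% of IV held 145 peaks per Mb (17% of the peaks of IV). The right 10% of II held 119 (19.8% of the peaks of II, 17.3% to 22.5%), and the left 10% of X held 107. The share on X was the largest, but its interval overlaps that of II. By windows of 1 Mb the densest was X 1-1000000 with 115 peaks and the next was X 1000001-2000000 with 109. No other complete window held more than 55, and the sparsest was X 10000001-11000000 with 18. The left end stood out less in the replicates: the same 10% held 20.3% of the X peaks of replicate 1 and 14.7% of those of replicate 2. The largest count of replicate 2 was in its second window of 1 Mb, with 30 peaks against 14 in the first. Its next largest were 20 peaks in each of 2 windows, X 4000001-5000000 and X 16000001-17000000.

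Low peaks made up much of the crowding at the very tip. The densest window of 100 kb was X 1-100000 with 36 series-wide peaks, where the mean of the 178 windows of X was 4.53 and the median 3. In that window replicate 1 had 20 peaks. The median score there was 5.16, below the median of 7.89 over all X peaks. In the first 300 kb there were 89 peaks, and 36 of them (40.4%, 30.2% to 51.4%) overlapped a peak of neither replicate, against 23% of all X peaks. Of the 89, 8 overlapped a replicate 2 peak. The second Mb differed from the tip: its 109 peaks had a median score of 7.74, 10 of them scored at least 50, and 26.6% overlapped a replicate 2 peak. Merging peaks within 10 kb of each other turned the 36 peaks of X 1-83686 into 1 stretch and brought the share of the left 10% to 11.5%, near its share of the length.

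A different picture held at X 4025942-4056397. There 9 series-wide peaks at most 1 kb apart covered 96.1% of 30.5 kb, with 9 overlapping peaks in replicate 1 and 18 in replicate 2. The widest X peak of all lay inside it, at X 4040735-4051183, with a width of 10449 bp and a score of only 19.6. Another run of 12 peaks, at X 5045412-5057299, covered 76.7% of its 11.9 kb and was met by 2 peaks of replicate 1 and 9 of replicate 2. Both replicates thus had peaks in these runs, with more and separate ones in replicate 2 although its list is the shorter.

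Neighbouring X peaks lay further apart than those of most autosomes, and in the series-wide list they did so at short, middle and long distances. The median distance between midpoints was 5.69 kb on X (order-statistic 95% interval 4587 to 6683 bp), close to 5.59 kb on III, and longer than 4.52 kb on II, 3.18 kb on V and 3.01 kb on IV. The intervals of X, II and III overlap one another. The 90th percentile was 67.4 kb on X and between 33.7 and 44.1 kb on the autosomes. In replicate 2 it was 272 kb on X, within the autosomal 219 to 292 kb, while the median there was 25.9 kb on X and 2.31 to 14.5 kb on the autosomes. The interval of that X median is wide, 5782 to 44118 bp, and overlaps those of II, III, IV and V. Of the distances on X, 14.5% were over 50 kb, against 4.98% to 8.48%. Distances under 1 kb made up 19.8% on X and 23.3% to 26.5% on the autosomes. Of the X peaks, 410 (50.9%) had no neighbour within 1 kb, where the autosomal shares were 42.5% to 47.8%.

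**Figure D2:**
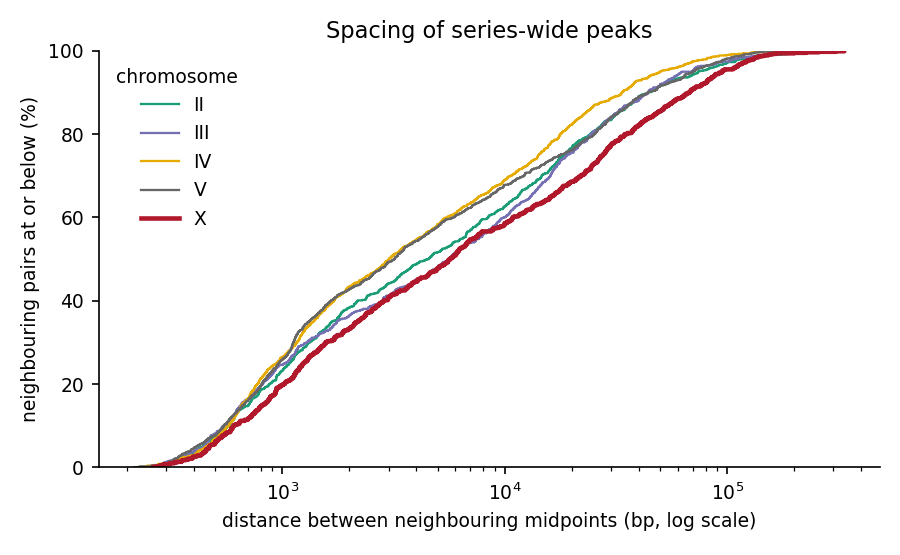
Cumulative share of neighbouring pairs (vertical axis, %) whose midpoints lie at or below a given distance (horizontal axis, bp, log scale), for the series-wide peaks of X (thick red) and of II, III, IV and V. The X curve lies below all 4 autosomes at 1 kb, close to that of III at the middle (5.69 and 5.59 kb), and below all 4 again at long distances, with a 90th percentile of 67.4 kb.

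The longest stretch of X without a series-wide peak ran for 334 kb between a peak ending at X 5915800 and the next at X 6250095. Counting also peaks that only extend into it from an edge, replicate 1 had none and replicate 2 had 1. The gap ended 46.2 kb to the left of the highest-scoring X peak, with 5 peaks in between. The next gaps were 308 kb after position 7449096 and 257 kb after position 9875241. By the same count each had 1 or 2 replicate 1 peaks and none of replicate 2. Of the 178 windows of 100 kb on X, 16 (8.99%) held no peak, against 1.9% on V, 4% on IV, 7.84% on II and 8.7% on III.

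The highest-scoring X peaks were short. The highest, X 6296259-6296716, was 458 bp wide and scored 136, and the overlapping peaks scored 535 in replicate 1 and 1328 in replicate 2. X 11093887-11094295 was 409 bp wide with a score of 125, and its replicate scores were 407 and 1204. X 4208971-4209377 was 407 bp wide with a score of 116, and its replicate scores were 448 and 1435. These 3 sites had a counterpart in both lists, and in neither list did it reach the value of 3100 at which the long peaks pile up.

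X 806496-806846 scored 115 at a width of 351 bp, with replicate scores of 325 and 867, and had no other series-wide peak within 61.7 kb. X 14525505-14525976 scored 111 at 472 bp, with replicate scores of 323 and 1099. X 1626941-1627308 scored 99.99 at 368 bp, with replicate scores of 259 and 830. All 3 were found in both replicates and again far below 3100 there. X 17544283-17544624, near the right tip, scored 97 at 342 bp, with replicate scores of 170 and 947. X 5429211-5429806 scored 96.2 at 596 bp, with replicate scores of 532 and 1094. The 8 highest X peaks were thus all under 600 bp wide.

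The next of the 10 highest X peaks were of another form. X 15806978-15811280 was 4303 bp wide and scored 90.7, and X 1752157-1755137 was 2981 bp wide and scored 89.3. Both replicates gave 3100 at each of them. Widths of the replicate peaks were also close, 4272 and 4330 bp at the first and 2954 and 2949 bp at the second. At the 8 short sites the replicate 2 peak was the wider in all 8, by 1.1 to 2.64 times with a median of 1.44. The largest difference was at X 4208971-4209377, where replicate 1 had 409 bp and replicate 2 had 1078 bp. Replicate 2 peaks were wider over the whole lists as well. Their median was 510 bp against 279 bp in replicate 1 on X, and 412 bp against 299 bp on II to V.

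Peaks scoring at least 50 showed this split over the whole chromosome. There were 45 of them among the 806 peaks of X and 114 among the 4676 of II to V. Over all nuclear series-wide peaks, X included, 201 of 6646 (3.02%) reached that score. Of the 45, 18 were under 700 bp wide (40%, 25.7% to 55.7%). Chromosomes II to V had 20 such narrow peaks among 114 (17.5%, 11.1% to 25.8%), with 4 on II, 5 on III, 5 on IV and 6 on V. Over all nuclear peaks 0.722% were both narrow and this high. Both limits were set with the values in view. The interval of X touches that of II to V, and with so few peaks the single autosomes have wide intervals, up to 56% on III. At a score of at least 70 the counts were 15 on X and 9 on II to V, with at most 3 on any autosome.

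**Figure D3:**
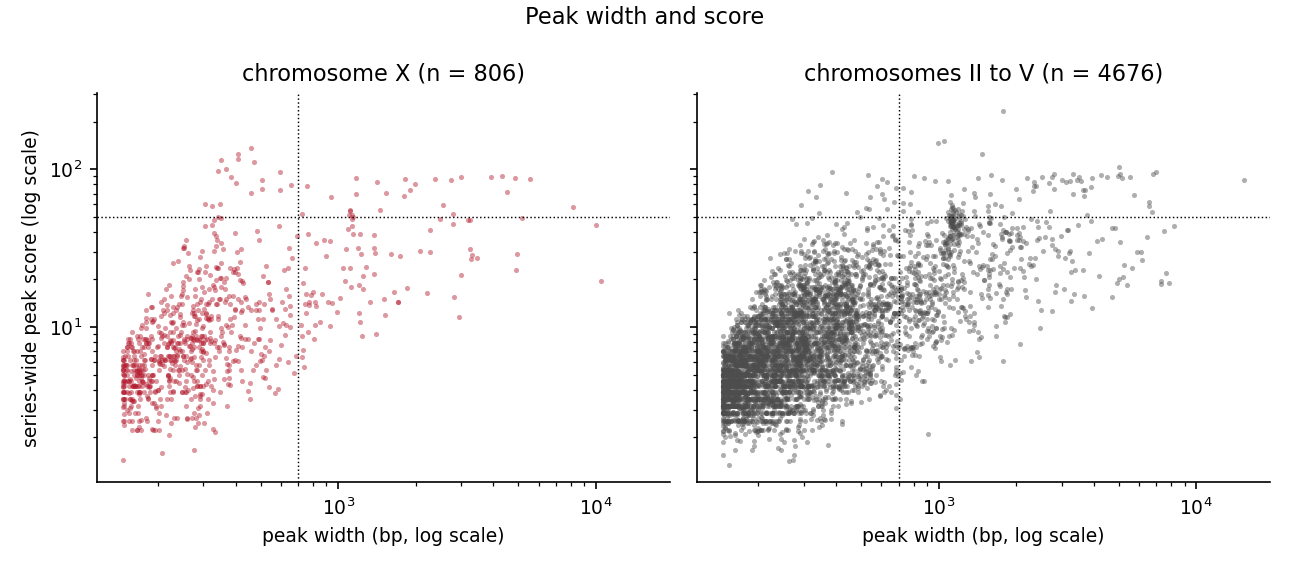
Width (horizontal axis, bp, log scale) and score (vertical axis, log scale) of each series-wide peak on X (left, 806 peaks) and on II to V together (right, 4676 peaks), with dotted lines at 700 bp and a score of 50. The upper left field holds 18 X peaks, with scores up to 136, and 20 peaks of II to V, with scores up to 95.5.

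The 18 narrow high peaks had widths from 303 to 658 bp, with a median of 408 bp, and scores from 58.5 to 136. They were spread over X rather than grouped: they fell in 14 of the 18 windows of 1 Mb, with 3 in the left 10%. Neighbours among them lay between 282 and 2300 kb apart, with a median of 862 kb. The 27 wide high peaks of X, by contrast, had 7 members in the left 10%, and some lay as close together as 1.37 kb. All 18 narrow peaks overlapped a replicate 2 peak and 15 overlapped a replicate 1 peak as well. The 3 without one, at X 7181593-7181895, X 9465596-9466055 and X 12362811-12363315, had replicate 2 scores of 550, 680 and 1316. Of the 20 narrow high peaks on II to V, 18 overlapped both replicates, 1 replicate 1 only and 1 replicate 2 only.

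In replicate 1's own list the narrow sites with a counterpart stood below the wide ones, whereas in that of replicate 2 the ranges overlapped. The counterparts of the narrow sites lay at percentiles from 27 to 87.8 of replicate 1 scores, with a median of 73.4 and 3 peaks without a counterpart, and from 72.1 to 90.9 of replicate 2 scores, with a median of 85.1. The lists differ in length, so no change is read between these percentiles. Those of the wide high peaks ran from 93.5 to 97.9 in replicate 1, with a median of 97.8 and 1 peak without a counterpart. In replicate 2 they ran from 64.7 to 94.7, with a median at that highest value, which is the percentile of the tied 3100, and 4 had no counterpart. None of the 18 narrow peaks had a counterpart at 3100 in either list, and 12 of the 27 wide ones did in each. No X peak at 3100 was narrower than 1251 bp in replicate 1 or 1146 bp in replicate 2. The split at 3100 thus follows largely from the width cut. On II to V the smallest widths at 3100 were 914 and 1098 bp, and none of the 20 narrow peaks had a counterpart at 3100. Of the 94 wide peaks there, 50 did in replicate 1 and 35 in replicate 2. Median replicate 1 scores on II to V were 825 for narrow and 3100 for wide peaks, against 259 and 3039 on X. Counterparts of narrow X peaks reached at most 535 in replicate 1, where those on II to V reached 2529. In replicate 2 the medians for narrow peaks were 861 on X and 761 on II to V. X held 27 of the 100 highest series-wide peaks (27%, 18.6% to 36.8%), 14 of them under 700 bp wide. X made up 12.1% of the whole series-wide list, 12.4% of that of replicate 1 and 16.3% of that of replicate 2. Among the peaks that tied or led in replicate 1, X held 19 of 127, and of the 100 highest in replicate 2 it held 14. None of these replicate peaks on X was under 700 bp wide. Among the 200 highest in replicate 2, X held 42 (21%, 15.6% to 27.3%), an interval that includes the 16.3% of its whole list. Of these 42, 16 were under 700 bp wide, against 11 of the 110 on II to V. Among the 200 highest in replicate 1, X held 29 (14.5%), none under 700 bp. Narrow X peaks were thus among the top peaks of replicate 2 at 200 but not at 100.

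**Figure D4:**
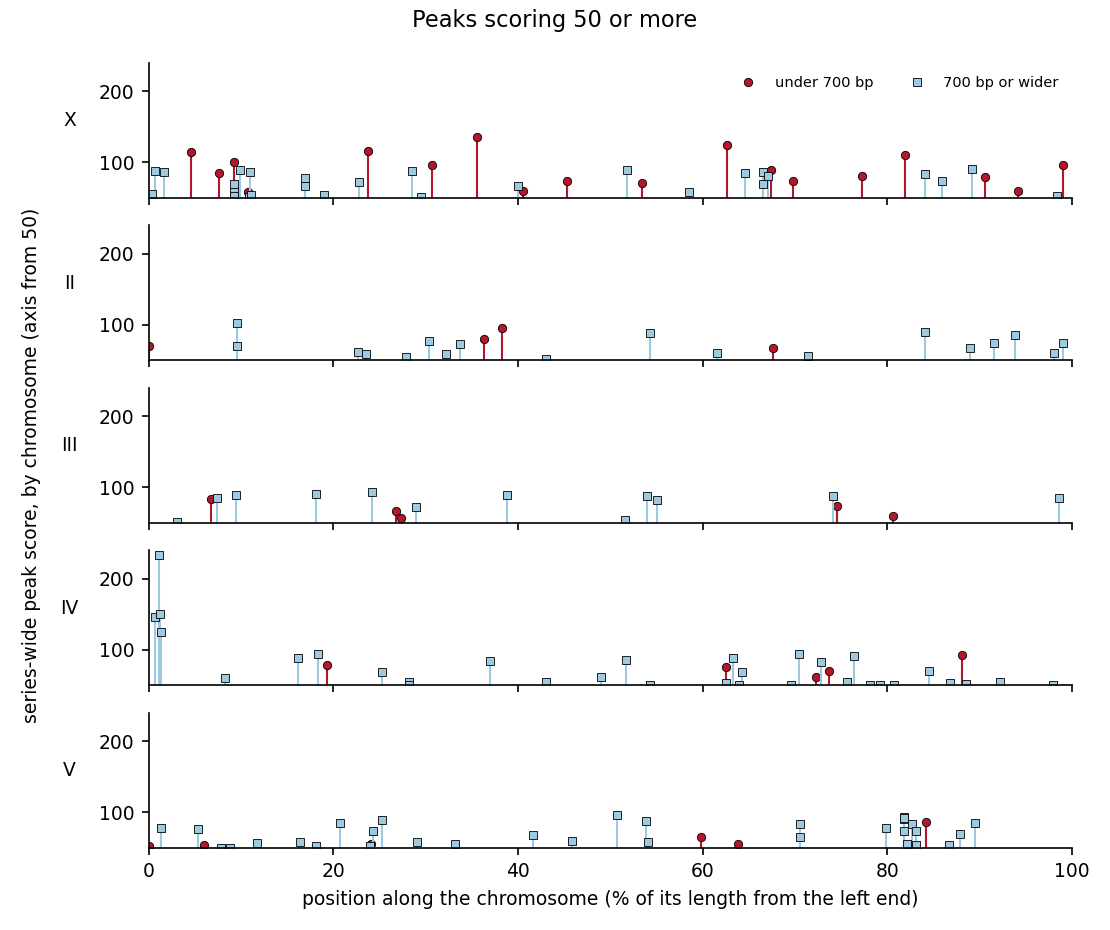
Score (vertical axes, from 50) of each series-wide peak scoring at least 50, by its position as a percentage of chromosome length from the left end (horizontal axis), for X, II, III, IV and V, with peaks under 700 bp as red circles and wider ones as blue squares. On X the 18 narrow peaks are spread from the left end to the right and 8 of them lie above every wide X peak, while on IV the highest scores belong to wide peaks at the left end.

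Over all peaks, width and score went together on X as elsewhere. Spearman's rank correlation between width and score was 0.64 over the 806 X peaks and 0.61 to 0.68 on the autosomes, a description across peaks that share libraries and caller. It was 0.85 in replicate 1 and 0.73 in replicate 2 on X. The autosomes had 0.80 to 0.85 in replicate 2, so X was the lowest there. Among the 119 X peaks found in both replicates it was 0.34, against 0.43 on II to V. Median widths hardly differed, with 275 bp on X and 273 to 292 bp on the autosomes, and 79 X peaks (9.8%) were at least 1000 bp wide, near the 9.09% of all nuclear peaks. The median score of 7.89 on X equalled that of IV and was above 7.08 to 7.46 on II, III and V.

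The other very wide X peaks were X 7351316-7361335, 10020 bp wide with a score of 44.5, and X 10361030-10369180, 8151 bp wide with a score of 57.8. At the latter both replicates had a single peak of nearly the same width, 8207 bp scoring 3100 in replicate 1 and 8234 bp scoring 2134 in replicate 2. At the former the highest overlapping peak scored 3100 in replicate 1 and 79.3 in replicate 2, each read within its own list. The first of the X peaks tied at 3100 was X 53212-54462 in replicate 1, 1 of 19, and X 109133-114341 in replicate 2, 1 of 13. The replicate 2 peak contained the series-wide peak scoring 88.2, whereas the replicate 1 peak met a series-wide peak scoring 54.9 that had no replicate 2 counterpart.

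That last peak had a width at which X peaks were frequent. On X, 10 series-wide peaks were between 1100 and 1150 bp wide, a range chosen after the widths were seen, and all 10 overlapped replicate 1 only. In the adjoining ranges X had 3 peaks from 1050 up to 1100 bp, 2 of them in replicate 1 only, and 3 from 1150 up to 1200 bp, none in replicate 1 only. Scores of the 10 ran from 18 to 54.9, and in replicate 1 from 200 to 3100 with a median of 2910. The 10 lay apart from each other, from X 53272-54378 to X 17060607-17061748, with 3 of them in the stretch X 17013984-17061748. The 4 X peaks scoring at least 50 that replicate 2 lacked were all of this width class, with widths of 1104 to 1131 bp. The autosomes had such peaks as well: II to V held 63, and 51 (81%, 69.1% to 89.8%) were in replicate 1 only. The interval for X, 69.2% to 100%, overlaps theirs. Peaks of this width made up 12.7% of the X peaks of at least 1000 bp and 14.4% of those on II to V.

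Overlap with the replicate lists, counted from at least 1 shared bp, differed between X and the autosomes through replicate 2. Of the 806 X peaks, 119 (14.8%, 12.4% to 17.4%) were met by both replicates, against 10.6% of all nuclear series-wide peaks and 9.11% to 10.8% on II, III, IV and V. A peak of at least 1 replicate met 621 (77%), against 75.9% of all nuclear peaks. Replicate 1 alone met 456 (56.6%) and replicate 2 alone met 46 (5.71%, 4.21% to 7.54%), where the autosomes had 59.7% to 65.9% and 2.11% to 3.9%. With either form counted, 165 X peaks (20.5%, 17.7% to 23.4%) overlapped replicate 2, against 14% of all nuclear peaks and 12% to 13.7% on the autosomes, whose intervals reach up to 15.8%. Overlap with replicate 1, at 71.3%, was within the autosomal range of 68.9% to 75.6%.

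The higher overlap with replicate 2 was largest for X peaks of 301 to 500 bp. Of the 176 X peaks in that class 58 (33%, 26.1% to 40.4%) met a replicate 2 peak, against 133 of 1117 (11.9%, 10.1% to 14%) on II to V and at most 13.8% on any autosome. Without the peaks scoring at least 50 it was still 45 of 163, or 27.6%, against 11.4%. Scores were not matched in this class: their median was 12.2 on X and 9.31 on II to V. At 501 to 1000 bp the shares were 36.9% and 26.4%, with overlapping intervals, and above 1000 bp they were 68.4% and 54%, again with overlapping intervals and with 63.4% on III. At 300 bp or less the shares were low and their intervals overlapped. Up to 200 bp they were 3.17% (7 of 221, 1.28% to 6.42%) and 1.23% (15 of 1220, 0.69% to 2.02%). From 201 to 300 bp they were 6.1% and 5.05%. Replicate 1 met 85.2% of the X peaks of 301 to 500 bp and 83.2% of those on II to V. At 501 to 1000 bp it met fewer on X, 82.1% against 91.8%, with overlapping intervals.

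**Figure D5:**
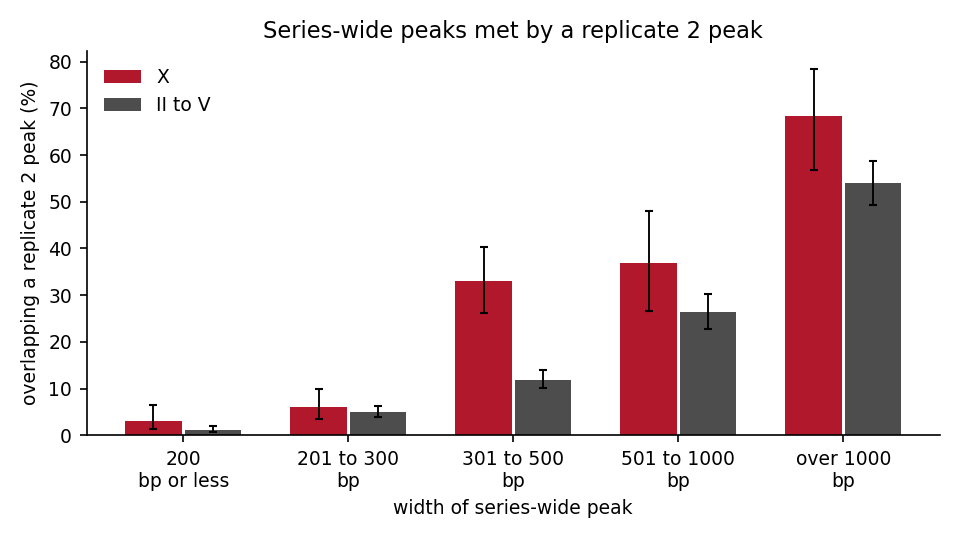
Share of series-wide peaks that overlap a replicate 2 peak by at least 1 bp (vertical axis, %), by width of the series-wide peak (horizontal axis), for X (red) and II to V together (grey), with exact 95% binomial intervals as error bars. At 301 to 500 bp the bars are 33% for X and 11.9% for II to V, and their intervals do not overlap.

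At matched scores the same order appeared. The nuclear series-wide peaks were split by score into 5 groups of about equal size. For scores between 9.31 and 16.2, 32 of 150 X peaks (21.3%, 15.1% to 28.8%) overlapped replicate 2, against 63 of 920 (6.85%, 5.3% to 8.68%) on II to V. In the highest group, above 16.2, the shares were 57.1% and 45.8%, and X peaks were narrower there, with a median of 534 bp against 730 bp. In the lowest group, up to 4.25, they were 2.76% and 4.42%, with overlapping intervals. Overlap with replicate 1 went the other way. For scores between 9.31 and 16.2 it was 87.3% on X (80.9% to 92.2%) and 95.9% on II to V (94.4% to 97.1%). In the highest group it was 93.8% and 97.1%, with overlapping intervals. Overlap with at least 1 replicate was 96.7% and 97.1% for scores between 9.31 and 16.2. On X it went from 39.3% in the lowest group to 99.4% in the highest.

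The X peaks found in both replicates had a median score of 31.7 and a median width of 658 bp, whereas those of II to V had 31.2 and 938 bp. The 46 X peaks met by replicate 2 alone had a median score of 10.7 and reached 77.9, at X 2996615-2997368. On II to V the 141 peaks of that kind had a median of 5.94 and reached 62. The 185 X peaks met by neither replicate were low and narrow, with a median score of 4.58 and a median width of 178 bp. The highest of them were X 17718602-17718889 (score 20.2), which ends at the last position covered by any X peak, X 11206979-11207157 (score 12.9) and X 5165122-5165314 (score 11.3). Peaks without a counterpart were thus mostly those with the lowest values.

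Read from the replicates' side, 130 of the 755 replicate 1 peaks on X (17.2%, 14.6% to 20.1%) overlapped a replicate 2 peak, against 12.5% to 14.7% on the autosomes. Of the 197 replicate 2 peaks on X, 141 (71.6%, 64.7% to 77.8%) overlapped a replicate 1 peak, against 72.2% to 87.6%. In the series-wide list 82.5% of the replicate 1 peaks on X had a counterpart (79.6% to 85.2%), below the 85.9% to 88.5% of the autosomes, though the interval of III reaches down to 83.3%. For replicate 2 it was 94.4% on X (90.2% to 97.2%) and 97.2% to 98.2% on the autosomes, with overlapping intervals. The median width of replicate 2 peaks was 510 bp on X (451 to 560 bp) and 381 to 483 bp on the autosomes, and that of replicate 1 peaks was 279 bp on X and 292 to 304 bp elsewhere.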

How the data were processed

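ChIP-seq peak lists of 2 replicates and 1 series-wide list were analysed. The lists deposited by the authors give positions and, per peak, a score of unnamed scale. The build is WormBase WS220 per the file headers, replicate peaks come from MACS and series-wide peaks from MACS v2. The submitters' processing notes name BWA and ce10. Parameters, control, filters and the way replicates were combined are not given in the sources used here, nor is read depth, so a peak missing from a list is no evidence of absent binding. The 4 samples were grouped by title. Whether replicates came from separate cultures is not stated, so their differences may be technical.

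Peaks were compared with Python 3.11.15, numpy 2.4.6, pandas 2.3.3 and scipy 1.17.1, checked on simulated lists, and plotted with matplotlib 3.10.9. Chromosome length was the largest peak end in the 3 lists, and peaks were placed by midpoints. Tied peaks were included in top lists. The 13 mitochondrial peaks were left out. X was set beside II, III, IV and V, and counts over all nuclear peaks also include I. Named sites were the 10 highest and 3 widest X peaks, the 3 highest in neither replicate, the extreme windows, the longest gap and each replicate's first peak; others were named after their values were seen. X as a subject and all summaries were chosen with earlier results of these data known.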

Additional observations from a re-analysis of the deposited data

How the results depend on the processing

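The narrow high peaks, the 301 to 500 bp class and the trim of dense windows were all picked with the values in view, that is, chosen after seeing the data. The density of X stayed below that of II to V in each setting run. It was 24.9 peaks per Mb (0.706 times II to V) for scores of at least the median, 6.1 (0.912) in the highest-scoring 10%, 18.6 (0.8) with peaks merged within 10 kb, 37 (0.599) without the 2 densest windows of 1 Mb of each chromosome, and 11.1 to 42.6 in the replicates' own lists. The share in both replicates was 9.31% with reciprocal overlap of 50% (II to V 5.9%), 9.93% with midpoints within 200 bp (6.65%) and 26.1% for scores of at least the median (19%), above II to V in each. The share in at least 1 replicate was 67.7% and 73.2% under the same overlap rules and 20.5% to 71.3% with 1 replicate each. Median spacing was 16.7 kb after merging within 1 kb and 6.03 to 25.9 kb in the replicates. Median width was 912 bp in the highest 10% (II to V 1116 bp) and 279 to 510 bp in the replicates; replicate 2 alone put X above II to V (412 bp). The rank correlation of width and score was 0.34 for peaks in both replicates, 0.57 for scores of at least the median, and 0.73 to 0.85 in the replicates. The left end held 14% in its outer 5%, 44.5% in its outer 30%, 11.5% after merging within 10 kb and 14.7% to 20.3% in the replicates. The densest window held 23 peaks at 50 kb and 56 at 200 kb, and 18 to 24 in the replicates, where it began at 4000001 in replicate 2 and at 100001 in replicate 1. The share of the 100 highest peaks on X was 14% to 15% in the replicates. In replicate 2 it was 20.3% among the 64 tied at the top and 21% among the 200 highest. X made up 12.4% of the whole list of replicate 1 and 16.3% of that of replicate 2. Narrow peaks scoring at least 30 numbered 42 on X and 87 on II to V, with 25 on 1 autosome. For all of these, the cause was not tested. No paired analysis was possible because ChIP is the only group with lists to compare.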
